A study of Homo sapiens with 4 samples.

Results

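Myosin and kinesin motor genes were followed through the H4K5la peak lists of wild-type (WT) and DNAJC12KO SH-SY5Y cells. They were taken by name: protein-coding symbols that begin with KIF, MYO, MYH or MYL and go on with a digit. This gave 93 of 20037 protein-coding genes, namely 39 kinesins, 25 unconventional myosins, 15 myosin heavy chains and 14 myosin light chains. H4K5la, lactylation of lysine 5 on histone H4, was mapped by chromatin immunoprecipitation sequencing in this human neuroblastoma line. The WT group has 1 immunoprecipitated and 1 input library from cells labelled WT, and the DNAJC12KO group has 1 of each from cells lacking DNAJC12, a co-chaperone gene. Both genotypes were otherwise labelled alike, and whether the knockout is a single clone is not given in the sources used here. With 1 library per group there is no replicate check, so no test between genotypes was made. Neither list gives read counts, and depth is therefore not known for either genotype.

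Motor proteins turn ATP into movement along the cytoskeleton. Kinesins walk along microtubules and carry vesicles, organelles and chromosomes, and neurons depend on them to supply the axon. Myosins pull on actin filaments: the heavy chains assemble into the filaments of muscle and of the contractile cortex, the light chains bind the neck of the heavy chain, and the unconventional myosins link membranes and organelles to actin. Histone lactylation uses lactate as its source and is mostly studied as a mark of active chromatin.

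The only motor gene where peaks of both genotypes overlapped was MYO1G, a membrane-bound class I myosin known from blood cells. Its record lies on chromosome 7 from 44962662 to 44979015 on the minus strand (GRCh38.p14). A peak is given here with the authors' fold enrichment over background and with its -log10 q, where 1 is about the lowest value in the lists. The WT list held 3 peaks at MYO1G and the DNAJC12KO list 5. The WT peak over the gene start, at 44978717 to 44979273, had a fold of 4.02 and a -log10 q of 1.87. The DNAJC12KO peak there, at 44978633 to 44979526, had a fold of 3.30 and a -log10 q of 1.5, and it enclosed the WT peak. Both also covered the whole promoter window of the gene, which runs from 250 bases before the transcription start to 50 bases after it.

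That is a rare position in these lists. Among 15843 protein-coding genes with a promoter window in the RefSeq table, 0.139% had one touched by a WT peak, 0.246% by a DNAJC12KO peak and 0.0189% by peaks of both. The last share stands for 3 genes, which are MYO1G, ADAP1 and ACTA1, the skeletal muscle actin gene. Of the 75 motor genes with such a window, 2 were touched in each list: MYO1G and MYL11 in the WT list, MYO1G and MYL7 in the DNAJC12KO list. MYL7 encodes the atrial regulatory light chain. Its DNAJC12KO peak at 44141173 to 44141751 on chromosome 7 (fold 4.03, -log10 q 2.17) covered the whole window, with its centre 0.13 kb before the gene start. The WT list had no peak at MYL7, and its nearest peak lay 19.1 kb from the gene record. The MYL11 peak touched a second listed start inside the gene and not the first.

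The promoters of MYO1G and MYL7 are shown because they are the only motor gene promoters that a peak covered in full. Each run is the 250 bases before the start on the coding strand (both genes are on the minus strand), from the RefSeq table of GRCh38.p14, with every CG dinucleotide in capitals. The MYO1G run is chr7:44979016-44979265 and the MYL7 run is chr7:44141333-44141582.
MYO1G: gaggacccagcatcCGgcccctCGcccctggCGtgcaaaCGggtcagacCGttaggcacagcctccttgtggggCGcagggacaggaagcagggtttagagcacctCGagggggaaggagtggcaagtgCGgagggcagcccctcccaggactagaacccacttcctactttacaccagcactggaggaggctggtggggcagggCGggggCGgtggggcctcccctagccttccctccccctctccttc
MYL7: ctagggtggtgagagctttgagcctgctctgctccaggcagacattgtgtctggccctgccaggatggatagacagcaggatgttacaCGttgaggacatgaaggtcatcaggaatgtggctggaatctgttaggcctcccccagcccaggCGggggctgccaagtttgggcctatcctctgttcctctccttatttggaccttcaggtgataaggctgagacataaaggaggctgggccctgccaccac
MYO1G had 10 CG dinucleotides and 67.2% G and C, and MYL7 had 2 and 56.4%. Over the 15843 protein-coding promoters of this length the medians were 17 and 62.4%, so both fell below the median number of CG dinucleotides. The GC box GGGCGG, searched on both strands, occurred 2 times in MYO1G and was not found in MYL7. It was present in 56.0% of all these promoters and in 69.3% of the 75 motor gene promoters. The E-box CANNTG, which reads alike on both strands, occurred 1 time in each and in 57.8% of all promoters. TATAAA and CCAAT, also searched on both strands, occurred in neither run, against 9.23% and 34.5% of all promoters. These letters describe the windows and are not evidence of binding.

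Within MYO1G the lists met at a second place. The WT peak at 44975436 to 44975777, 3.41 kb from the start, had the highest -log10 q of any WT peak at a motor gene (2.95, fold 4.30) and ranked 13 among 1937 WT peaks. It lay inside the DNAJC12KO peak at 44975419 to 44975895, which had a fold of 3.36, a -log10 q of 1.24 and rank 2527 of 2743. The third WT peak (fold 3.45) lay 8.79 kb from the start. The remaining DNAJC12KO peaks lay 1.87 kb (fold 3.84) and 6.81 kb (fold 3.42) inside the gene and 2.30 kb before it (fold 3.33). So the overlapping pairs sat at the start and 3.41 kb into the gene, and the other peaks of the lists lay at different places. These were the only motor gene peaks that overlapped between the lists: 2 of 15 WT peaks (13.3%) and 2 of 41 DNAJC12KO peaks (4.88%). Over all placed peaks the shares were 8.88% and 6.31%.

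**Figure D1:**
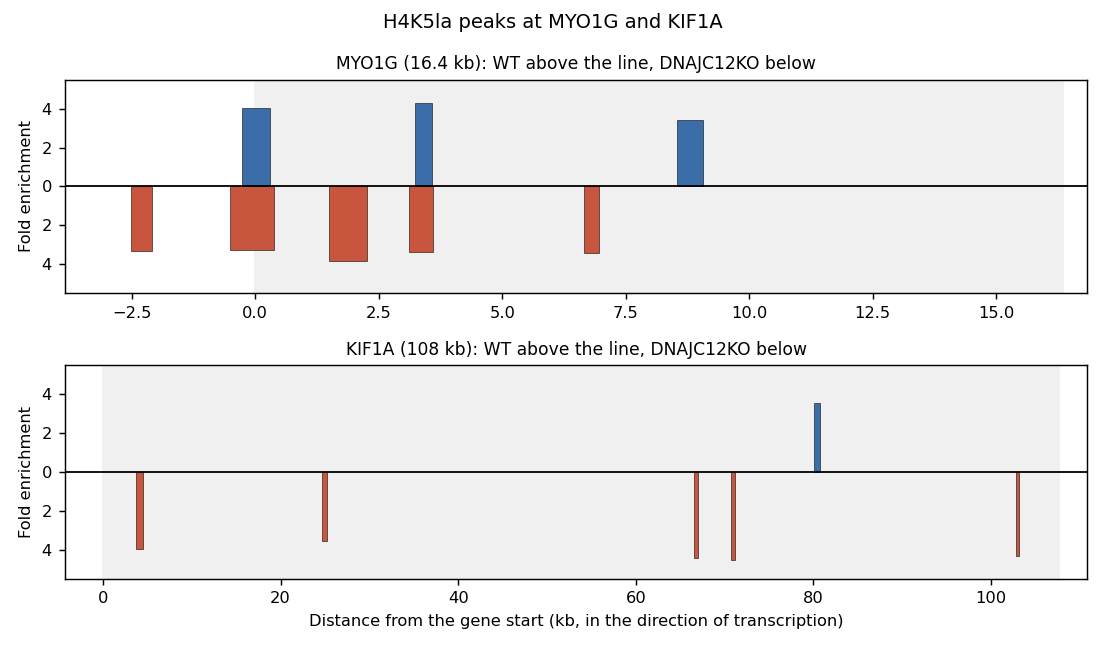
Peaks at MYO1G (top) and KIF1A (bottom) by distance from the gene start in kb (horizontal axis) and the authors' fold enrichment (vertical axis), with WT peaks in blue above the line, DNAJC12KO peaks in red below it and the gene record shaded. The lists overlap at 2 places in MYO1G and at none in KIF1A, which has 1 WT and 5 DNAJC12KO peaks.

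Of the 93 motor genes, 11 had a WT peak and 20 a DNAJC12KO peak. A gene was counted when a peak overlapped its record or the 3 kb on either side by at least 1 bp. The WT count was 11.8% of the motor genes (exact binomial 95% interval 6.05 to 20.2%), against 6.46% of all protein-coding genes. The DNAJC12KO count was 21.5% (interval 13.7 to 31.2%), against 8.23%. The intervals cover counting error over genes and not the spread between cultures. No motor gene was counted through its flanks alone: with the record only, the same 11 and 20 genes had a peak. A long gene offers more room for a peak, and the median motor gene is 56.4 kb long against 24.1 kb for all genes. The protein-coding genes, motor genes included, were therefore split into 10 bins of length, and each motor gene was given the share of its bin that had a peak. Summed, these shares gave 6.51 motor genes with a WT peak and 8.47 with a DNAJC12KO peak. The counts were 1.69 and 2.36 times as high. The intervals treat motor genes as independent, which genes crowded on the same chromosomes need not be, so they are no test of these ratios.

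The share of genes with a peak rose with length. Among all genes it went from 2.89% (WT) and 3.54% (DNAJC12KO) in the shortest bin to 8.04% and 9.94% in the longest, with most of the rise in the shortest bins. Counted by length instead, motor genes had 1.43 WT peaks per Mb of record and flanks against 1.35 for all protein-coding genes, and 3.9 DNAJC12KO peaks per Mb against 1.77. The WT count per Mb was thus close to that of all genes, and the DNAJC12KO count was not. Few of the longest motor genes were marked, and the numbers from length were small as well. Of the 21 motor genes in the longest bin, above 152 kb, 0 had a WT peak (1.69 from the bin's share) and 1 had a DNAJC12KO peak (2.09), which was MYO18B. MYO16 (712 kb), KIF26B (554 kb), MYO3B (477 kb), KIF6 (395 kb), MYO1D (385 kb) and MYO5B (372 kb) had none in either list. The same held for KIF16B (301 kb), MYO9A (296 kb), MYO3A (278 kb) and MYO10 (274 kb). Of the 40 motor genes of 35.3 to 152 kb, 7 had a WT peak and 14 a DNAJC12KO peak, against 2.73 and 3.88 from length. Of the 32 shorter ones, 4 and 5 did, against 2.09 and 2.5.

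**Figure D2:**
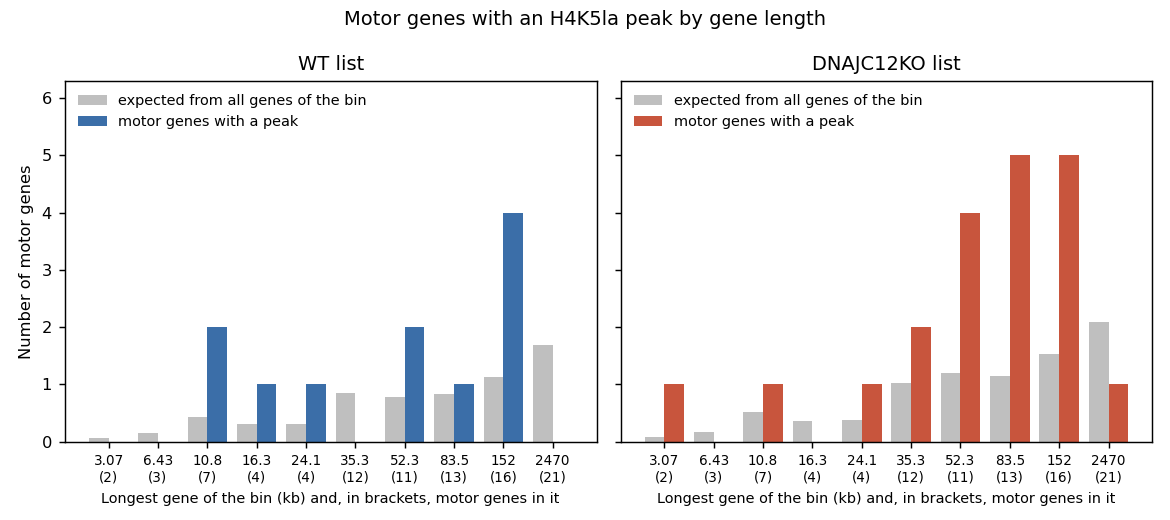
Motor genes with a peak in the WT list (left) and the DNAJC12KO list (right) in 10 bins of gene length; the horizontal axis gives the longest gene of each bin in kb and the number of motor genes in it. Coloured bars are counts and grey bars the number from the share of all genes of the bin: in the longest bin the counts are 0 and 1, below the grey bars of 1.69 and 2.09.

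Position in the genome moved with these counts. Motor genes with a peak in either list had a median of 16.5 protein-coding neighbours within 500 kb and those without had 9, much as among all genes (18 and 11). In bins of length and gene density together the counts were 1.49 (WT) and 2.09 (DNAJC12KO) times those of the bins. Chromosomes 7 and 17, where peaks of both lists are crowded, hold 4 and 18 motor genes. On chromosome 7, 2 had a WT peak and 3 a DNAJC12KO peak, against 0.245 and 0.306 from length, and on chromosome 17 the numbers were 1 and 6, against 1.24 and 1.63. Of all protein-coding genes on these chromosomes, 15.5% had a WT peak and 16.7% a DNAJC12KO peak. Without these chromosomes the counts were 8 and 11 of 71 motor genes, and 1.88 and 1.91 times the length share computed without them. They were 11.3% (WT) and 15.5% (DNAJC12KO) of the motor genes there, against 5.4% and 7.24% of all protein-coding genes there. Counted per Mb, motor genes off these chromosomes had 0.992 WT peaks against 1.0 for all genes there, and 2.65 DNAJC12KO peaks against 1.37.

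Both lists marked 7 motor genes: KIF1A, KIF3C, MYH7B, MYO1G, MYO7B, MYO9B and MYO15B. Among all protein-coding genes 2.92% were in both. The 7 genes were 63.6% of the WT members and 35.0% of the DNAJC12KO members, where all protein-coding genes gave 45.2% and 35.5%. Outside MYO1G the peaks of the 2 lists lay apart in the same gene. The smallest gap between them was 479 bp in MYO15B, 2.95 kb in MYO9B, 3.14 kb in MYH7B, 5.71 kb in MYO7B, 8.92 kb in KIF1A and 24.9 kb in KIF3C. In the WT list alone were 4 motor genes, KIF5C, MYL9, MYL10 and MYL11, and in the DNAJC12KO list alone 13. Neither list had a peak at the other 69.

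**Figure D3:**
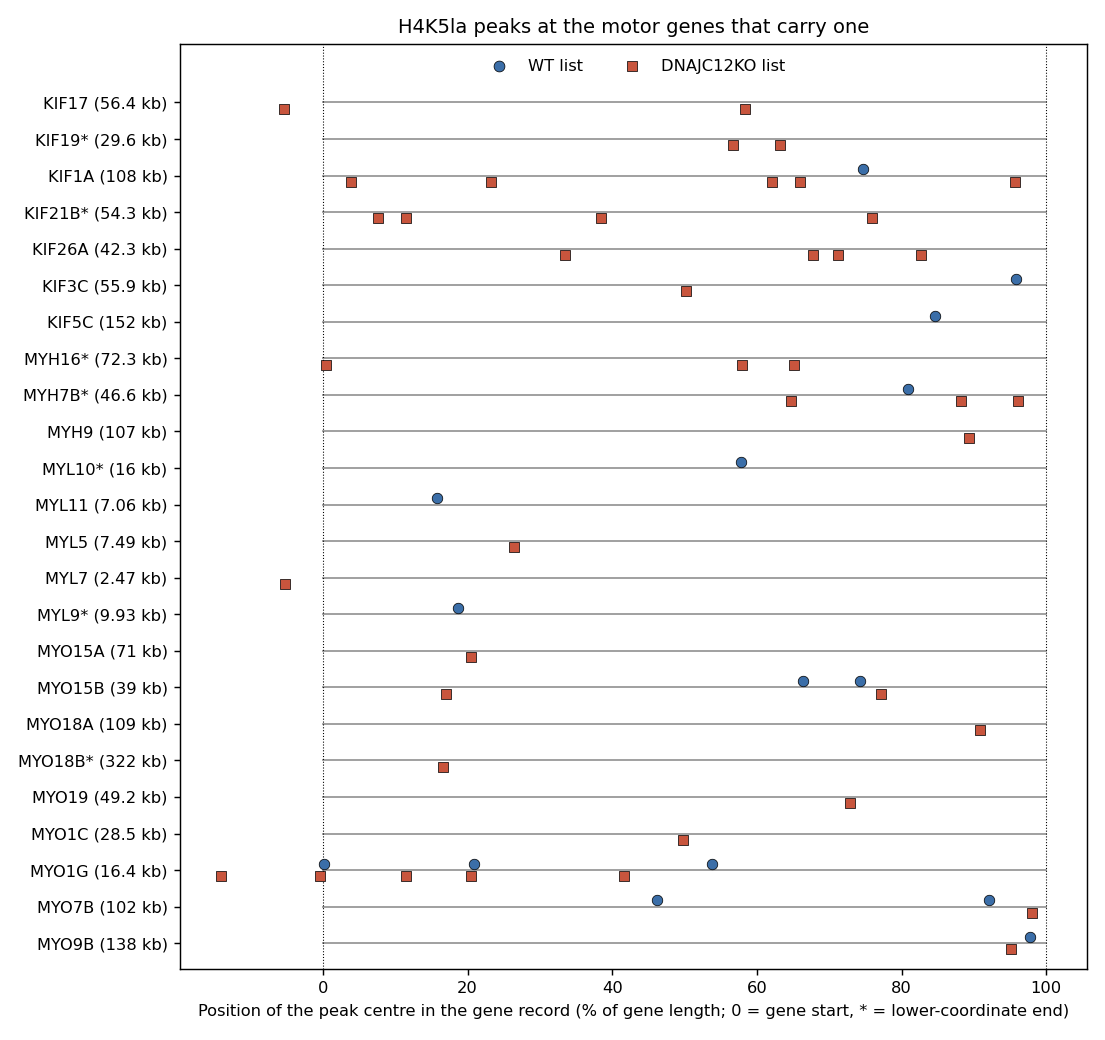
Peak centres along the 24 motor genes with a peak, in percent of the gene record from its start (horizontal axis), with WT peaks as blue circles and DNAJC12KO peaks as red squares; gene lengths are in brackets, and an asterisk marks a gene without a strand in the promoter table, drawn from its lower coordinate. KIF1A and MYO1G carry 5 DNAJC12KO squares each, and 13 genes carry squares only.

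Of the 39 kinesins, 3 had a WT peak and 6 a DNAJC12KO peak, against 2.68 and 3.57 from length. KIF1A, the motor of synaptic vesicle precursors in axons, had the highest fold of the kinesins in the DNAJC12KO list and the lowest of the 3 in the WT list. It lies on chromosome 2 from 240713767 to 240821403 on the minus strand. The WT list had 1 peak there, 80.4 kb from the start (240740642 to 240741296, fold 3.56, -log10 q 1.24). The DNAJC12KO list had 5, at 4.10, 25, 66.8, 71.0 and 103 kb from the start, with folds of 3.98, 3.57, 4.42, 4.55 and 4.30. The peak at 71.0 kb (240750216 to 240750652, -log10 q 2.51) ranked 44 in its list and was the best-ranked DNAJC12KO peak at any motor gene. Thus both lists marked KIF1A, and the DNAJC12KO list did so at 5 places of which none met the WT peak. Lying apart was the common case, as 8.88% of all WT peaks and 6.31% of all DNAJC12KO peaks overlapped the other list.

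KIF3C, a kinesin-2 subunit of neurons (chromosome 2, 25926598 to 25982497), had 1 peak in each list. The WT peak lay near the end of the gene, 53.5 kb from the start (fold 3.78), and the DNAJC12KO peak in its middle, at 28.1 kb (fold 3.51). KIF5C, a neuronal heavy chain of conventional kinesin (chromosome 2, 148875227 to 149026759), had 1 WT peak at 149003279 to 149003557 (fold 4.24, -log10 q 2.14) and no DNAJC12KO peak. The closest DNAJC12KO peak to it was 12500 kb away.

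Several kinesins had a peak in the DNAJC12KO list alone. KIF21B, a neuronal kinesin that also acts on microtubule growth (chromosome 1, 200969390 to 201023714), had 4, with folds from 3.26 to 3.85. KIF26A, an atypical kinesin without motor activity (chromosome 14, 104138587 to 104180894), also had 4, with folds from 3.59 to 3.79, and 3 of them lay between 28.7 and 35.0 kb from the start. A WT peak lay 19.1 kb from the KIF26A record, outside the window. KIF19, a kinesin of ciliary tips (chromosome 17), had 2, with folds of 3.51 and 3.24. KIF17, a kinesin-2 motor of dendrites and cilia (chromosome 1), had 1 inside the gene (fold 3.71) and 1 with its centre 3.07 kb before the start (fold 4.00), and the latter overlapped the neighbouring gene SH2D5. The nearest WT peak was 7.14 kb from the KIF17 record. All 4 genes therefore had peaks in the DNAJC12KO list and none within 3 kb in the WT list.

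The 16 kinesins of axonal and ciliary transport held 3 genes with a WT peak and 4 with a DNAJC12KO peak, against 1.14 and 1.56 from length. The 14 kinesins of mitosis and microtubule ends, such as KIF11, which pushes spindle poles apart, and KIF23, which acts in cytokinesis, held 0 in each list, against 0.903 and 1.17. An expectation near 1 leaves a count of 0 uninformative. The other 9 kinesins, among them KIF19 and KIF26A, held 0 and 2, against 0.632 and 0.849. The groups were chosen with earlier results known, and a different placing of KIF19 would change these counts. The ubiquitous heavy chain gene KIF5B and the neuronal KIF5A had no peak either. The DNAJC12KO peak nearest to KIF5A lay 13.9 kb away, in the neighbouring dynactin gene DCTN2.

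Of the 4 families, unconventional myosins had the largest share of DNAJC12KO-marked genes. There 9 of 25 had a peak (36.0%) against 2.43 from length, and in the WT list 4 did (16.0%) against 1.88. Of the DNAJC12KO-marked genes, MYO1C, MYO15A, MYO15B, MYO18A and MYO19 lie on chromosome 17 and MYO1G on chromosome 7. Peaks of both lists are crowded there, and 16.7% of all protein-coding genes there had a DNAJC12KO peak, against 8.23% genome-wide. The order of the families was not computed without these chromosomes. MYO15B, a class XV myosin gene (chromosome 17, 75587800 to 75626849), had 2 peaks in each list. Its WT peaks lay 25.9 and 29.0 kb from the start (folds 3.94 and 3.72), and its DNAJC12KO peaks at 6.65 and 30.1 kb (folds 4.08 and 3.80). The WT peak ending at 75617019 and the DNAJC12KO peak starting at 75617498 were neighbours in the last part of the gene.

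MYO7B, a myosin of intestinal microvilli (chromosome 2, 127535683 to 127637726), had WT peaks at 47.1 kb (fold 4.28) and 93.9 kb (fold 3.59) from the start and a DNAJC12KO peak at 98.1% of its length (fold 3.87). MYO9B, a class IX myosin gene (chromosome 19, 17075777 to 17213286), had 1 peak in each list near its end, at 97.7% of its length in the WT list (fold 3.96) and 95.2% in the DNAJC12KO list (fold 3.68). In MYO9B and MYO7B alike, peaks of both lists thus sat at 92.1% of the gene length or later without touching.

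The other unconventional myosins with a peak had 1 DNAJC12KO peak each and no WT peak. They were MYO1C, which acts in vesicle delivery to the membrane (fold 3.77), MYO15A, needed for the stereocilia of the inner ear (3.66), and MYO19, the myosin of mitochondria (3.74). MYO18A, linked to the Golgi (3.52), and MYO18B, a sarcomere protein of striated muscle (3.68), completed the set. Their -log10 q values ran from 1.30 to 1.51, against a median of 1.48 over that list. MYO18B lies on chromosome 22 and the other 4 on chromosome 17.

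Of the 11 muscle myosin heavy chain genes, 1 had a WT peak and 2 a DNAJC12KO peak, against 0.777 and 1.01 from length. MYH7B, an evolutionarily old slow-type muscle myosin (chromosome 20, 34955868 to 35002437), carried the WT peak with the highest fold of any motor gene, at 34993355 to 34993659 (fold 5.12, -log10 q 2.82, rank 22). The DNAJC12KO list had 3 peaks there, at 34985859 to 34986191 (fold 4.15), 34996796 to 34997088 (3.97) and 35000043 to 35001198 (3.51), of which the last lay within 3 kb of TRPC4AP as well. The WT peak fell between the first and the second of these. MYH16, a jaw muscle myosin gene that lost its function in the human lineage but is listed as protein-coding in the table used (chromosome 7, 99238829 to 99311128), had 3 DNAJC12KO peaks and no WT peak. The strongest (fold 4.01, -log10 q 2.00) crossed the lower end of the record. MYH9, the heavy chain of non-muscle myosin IIA (chromosome 22), had 1 DNAJC12KO peak, 95.3 kb from the start (fold 3.92).

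MYH7B is also the host of a muscle microRNA, as are the cardiac heavy chain genes MYH6 and MYH7, and these microRNAs have closely related seeds. Their mature sequences are shown because the hairpin in MYH7B lies between peaks, while the hairpins in MYH6 and MYH7 lie far from any. Capitals mark the seed, bases 2 to 8, and the sequences are from RefSeq.
miR-499a-5p (MYH7B): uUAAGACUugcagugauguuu
miR-208a-3p (MYH6): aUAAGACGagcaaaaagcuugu
miR-208b-3p (MYH7): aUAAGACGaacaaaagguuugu
The MIR499A hairpin (chr20:34990376-34990497) lay 2.86 kb from the WT peak and 4.18 kb from the nearest DNAJC12KO peak. MIR208A in MYH6 lay 872 kb from the nearest WT peak and 135 kb from the nearest DNAJC12KO peak, and MIR208B in MYH7 lay 842 kb and 106 kb away. Nearness to a peak was not particular to MYH7B: MIR6819 in MYH9 lay 5.4 kb from a DNAJC12KO peak, and 467 kb from the nearest WT peak. MYH6 and MYH7 had no peak in either list, and neither did the skeletal muscle genes MYH1, MYH2, MYH3, MYH4, MYH8 and MYH13, which form a cluster on chromosome 17.

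Light chain genes are short, with a median of 10.3 kb, and 5 of 14 had a peak in 1 of the lists but none in both. Only 2.92% of all protein-coding genes were in both lists, so none among 14 is uninformative. The WT list marked MYL9, the regulatory light chain of smooth muscle (chromosome 20, fold 3.79), MYL10, a further regulatory light chain gene (chromosome 7, 3.67), and MYL11, the regulatory light chain of fast skeletal muscle (chromosome 16, 3.86). The DNAJC12KO list marked MYL7, described above, and MYL5, another regulatory light chain gene (chromosome 4, 3.63). From length, 0.875 and 1.06 were due. The peak at MYL11 also lay within 3 kb of TBC1D10B and that at MYL5 within 3 kb of ATP5ME and SLC49A3. For these the gene cannot be told apart from its neighbour. DNAJC12KO peaks lay 7.75 kb from MYL10 and 15.5 kb from MYL9. The light chains MYL6, MYL12A and MYL12B, which serve non-muscle myosin in most cells, had none.

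Most motor gene peaks lay inside the gene. In the WT list 14 of 15 were inside the record and 1 crossed an end. In the DNAJC12KO list 36 of 41 were inside, 3 crossed an end and 2 lay in the flanks. For genes with a known strand, each was split into 3 equal parts. Of 12 WT peak centres, 3 fell in the first, 3 in the middle and 6 in the last part, and over all protein-coding genes the last part held 46.9%. Of 24 DNAJC12KO peak centres, 7, 7 and 10 did so (41.7% in the last part), against 50.6% over all genes. The last part held the most centres in each list, at motor genes as over all protein-coding genes.

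The median fold of motor gene peaks was close to that of all peaks. The WT ones had a median fold of 3.86 (range 3.45 to 5.12) and the DNAJC12KO ones 3.68 (range 3.24 to 4.55), against 3.82 and 3.69 over all placed peaks. Their median -log10 q was 1.64 and 1.46, against 1.47 and 1.48. Values of 2 or more on the -log10 q scale belonged to 3 WT peaks, at MYO1G, MYH7B and KIF5C, and by 6 DNAJC12KO peaks, at KIF1A (3 peaks), MYL7, MYO15B and MYH16. These were 20% and 14.6% of the peaks at motor genes, against 10.4% and 9.99% of all placed peaks. With such peaks alone, the lists marked 3 (WT) and 4 (DNAJC12KO) motor genes, and 187 and 217 protein-coding genes in all. No motor gene was then in both lists, which so few marked genes leave uninformative.

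**Figure D4:**
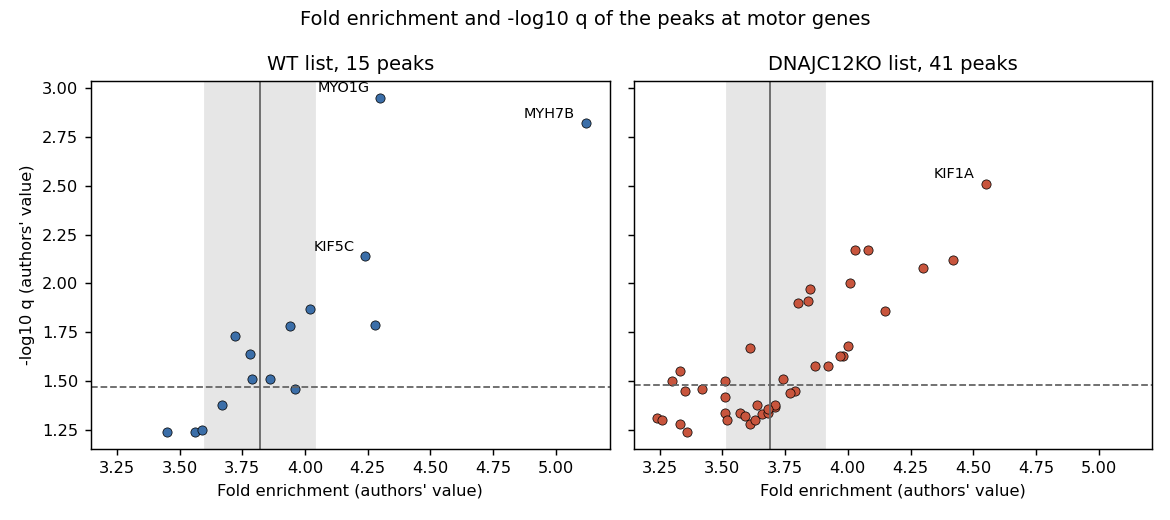
Fold enrichment (horizontal axis) and -log10 q (vertical axis) of each peak at a motor gene in the WT list (left, 15 peaks) and the DNAJC12KO list (right, 41 peaks). The grey band spans the middle 50% of folds over all placed peaks of the list and the lines mark its median fold and median -log10 q: MYH7B has the highest WT fold, 5.12, and KIF1A the highest DNAJC12KO fold, 4.55.

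Several motor genes carried more than 1 peak. At least 3 peaks were found at 1 motor gene in the WT list, MYO1G, against 0.554% of all protein-coding genes. In the DNAJC12KO list 6 motor genes had 3 or more, KIF1A, MYO1G, KIF21B, KIF26A, MYH7B and MYH16, against 0.833% of all protein-coding genes. These shares were not adjusted for gene length, and the median motor gene is 56.4 kb long against 24.1 kb for all genes. These 6 genes held 24 of the 41 peaks. The DNAJC12KO list is longer, with 2743 placed peaks against 1937. Cut to the 1937 peaks with the highest -log10 q, it marked 16 motor genes, against 6.5 from length, and 1262 protein-coding genes in all. The same 7 motor genes were then in both lists.

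Partners of the motors showed no single pattern. Of 17 kinesin light chain, adaptor and C-type kinesin genes, 7 had a WT peak (1.21 from length) and 3 a DNAJC12KO peak (1.54). PLEKHM2, which links kinesin to lysosomes, led with a WT fold of 5.66 and had a WT peak (fold 4.50) inside a DNAJC12KO peak (4.12) at 15733398 to 15734232 on chromosome 1. MAPK8IP3, an axonal adaptor, was also in both lists (4.13 in WT, 4.34 and 3.53 in DNAJC12KO). KIFC2, KIFC3, KLC4, MAPK8IP2 and SPAG9 were in the WT list alone and KLC1, a kinesin light chain gene, in the DNAJC12KO list alone (3.75). KIFC2 and KIFC3 are themselves motors, which the naming rule for the 93 genes leaves out.

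Of 26 genes of cytoplasmic dynein and dynactin, the motor for the opposite direction, 0 had a WT peak and 1, DCTN2, a DNAJC12KO peak (fold 3.67), against 1.80 and 2.33. Of 13 heavy chains of ciliary dynein, DNAH17 had 2 WT and 9 DNAJC12KO peaks, and DNAH1 (7 peaks), DNAH2 and DNAH7 (1 each) were in the DNAJC12KO list alone. The counts were 1 and 4 against 1.02 and 1.28. DNAH17 and DNAH2 lie on chromosome 17, where peaks of both lists are crowded, DNAH1 on chromosome 3 and DNAH7 on chromosome 2. Of 20 myosin regulators and partners 0 had a WT peak, and MPRIP, which targets myosin phosphatase, and UNC45A, a myosin chaperone, had a DNAJC12KO peak (3.47 and 3.85), against 1.48 and 1.88. Of 14 actin, actinin and tropomyosin genes, ACTA1 was in both lists, and ACTN3 (4.25) and TPM4 (4.15) in the WT list, which gives 3 and 1 genes against 0.841 and 1.1. Of 15 tubulin genes, TUBA8 alone had a peak, in the DNAJC12KO list (3.65), against 0.847 and 1.02. PLEKHM2 and ACTA1 were known to carry peaks when these lists were written.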

How the data were processed

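Per the submitters' processing notes, peaks were called with MACS2 2.2.6 on build hg38. The authors deposited 1 broad peak list per genotype (1943 WT and 2755 DNAJC12KO peaks), taken as that of the immunoprecipitated library. The authors' values per peak, made by the peak caller, are a score (not used), a fold enrichment (a linear ratio over background) and a -log10 p and -log10 q. Whether the input was the control, and any scaling by spike-in, is not given in the sources used here. Peaks on unplaced sequences (6 and 12) were left out.

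Gene records are those of RefSeq on GRCh38.p14, and strand was read from the matching promoter table, which matched 75 of 93 members and 15843 of 20037 genes; elsewhere positions count from the lower coordinate. Overlaps needed 1 bp within the record or 3 kb around it. The tools were Python 3.11.15, pandas 2.3.3, numpy 2.4.6, scipy 1.17.1 and matplotlib 3.10.9, and overlap and expectation were tested on simulated data. Every motor gene with a peak, the 10 longest without one and every partner gene with a peak are named. Members, lists, role groups and the genes compared were chosen with earlier results of these data known. Alternatives were 3 windows, stricter peaks, lists of equal length, a larger overlap, other bins, and leaving out chromosomes 7 and 17.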

Additional observations from a re-analysis of the deposited data

How the results depend on the processing

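The counts were 11 (WT), 20 (DNAJC12KO) and 7 (both lists). They depended most on the threshold for peaks. With peaks of -log10 q 2 or more they were 3, 4 and 0, and the ratios of count to length share rose from 1.69 to 3.25 (WT) and from 2.36 to 3.54 (DNAJC12KO). With a fold of at least 4 the counts were 4, 6 and 1, the last being MYH7B. KIF17 was then counted only through its DNAJC12KO peak outside the record (fold 4.0), which overlapped SH2D5. Without chromosomes 7 and 17 the DNAJC12KO count was 11. Fewer peaks or genes entered these counts, and the cause of the higher ratios was not tested. The other 37 combinations of result and setting stayed within 1.5 times the count or within the interval of the ratio, and the ratios stayed above 1 in all settings run. With the window at 10 kb KIF17 and MYL10 also entered both lists. The bins of length and gene density were added after seeing the data. No paired analysis was possible because each genotype has 1 immunoprecipitated library. The depth is unknown, so a gene without a peak is one below the authors' threshold, not one shown to lack the mark.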
